A study of Homo sapiens with 12 samples.

Results

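Lysosome and autophagy genes were followed after silencing of cyclin D1 in Granta-519 and JeKo-1, established human cell lines of mantle cell lymphoma. The group was a named list of 37 genes for lysosomal enzymes, lysosomal membrane and lumen proteins, the proton pump, autophagy factors and the transcription factors TFEB and TFE3. Every one of the 37 symbols was found in both tables, among 23617 symbols in the Granta-519 table and 23615 in the JeKo-1 table, and for each symbol the row with the highest mean was used. Expression is given as RPKM (reads scaled to gene length and library size). A gene was tested in a line if 3 or more of the 6 libraries reached 1 RPKM, which kept 36 members in Granta-519 and 37 in JeKo-1.

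Mantle cell lymphoma is a B-cell lymphoma in which a translocation typically switches on CCND1, the gene of cyclin D1, which drives cells from G1 into S phase with its kinase partners. Cells of each line carried a lentiviral shRNA against CCND1 (shCycD1) or a control shRNA (shCtrl) and were selected with puromycin, so the shCtrl cells share the vector and the drug. Each of the 4 groups had 3 libraries of total RNA, which the study design calls biological replicates, and whether these were separately infected cultures is not given, so p-values measure the spread between these libraries. A single shRNA name is given for the silenced cells, so an effect of cyclin D1 loss and any other effect of that shRNA cannot be told apart. Per the labels the lines also grew in different media, RPMI for Granta-519 and DMEM for JeKo-1.

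Lysosomes are acidic compartments in which hydrolases break down proteins, lipids, sugars and nucleic acids delivered by endocytosis and autophagy. In autophagy a kinase complex and a lipid kinase complex start a membrane, conjugation enzymes attach ATG8 proteins to it, cargo receptors load it, and it then fuses with a lysosome. TFEB and TFE3, factors that the nutrient-sensing kinase mTORC1 keeps in the cytoplasm when nutrients are plentiful, bind an E-box element called CLEAR in the promoters of many of these genes. In B cells the same compartment also processes antigen for MHC class II.

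The targeted gene CCND1 fell in both lines without overlap of the groups, at 924, 1044 and 874 RPKM in Granta-519 shCtrl against 213, 298 and 292 in shCycD1 (log2 change -1.83 ± 0.14, adjusted p = 0.000257), and at 395, 330.1 and 315 against 65.4, 64.8 and 67.4 RPKM in JeKo-1 (log2 change -2.38 ± 0.09, adjusted p = 1.96e-06; here and below ± after a log2 change is its SE with 3 libraries against 3, and adjusted p is from limma with Benjamini-Hochberg adjustment over all genes tested). Across genes, Granta-519 libraries had a correlation of 0.98 to 0.99 within groups and 0.95 to 0.96 between them, and JeKo-1 libraries had 0.97 within and 0.88 to 0.90 between. The tables give no read totals, so the depth is unknown. All 8 B-cell and mantle cell lymphoma markers, CCND1 among them, were present in both lines. In Granta-519 5 of them fell and 0 rose, with sums of 3311 to 3506 RPKM in shCtrl and 2409 to 2558 in shCycD1, and in JeKo-1 2 fell and 3 rose, with sums of 1229 to 1446 against 1350 to 1521. These counts and sums include the fall of the targeted CCND1 itself. Its mean went from 947 to 268 RPKM in Granta-519 and from 347 to 65.9 in JeKo-1, so the sums do not show how the other markers moved. The part of the markers in the results below was not tested. Of 10 myeloid markers, whose cells are rich in lysosomes, MPO and S100A8 were listed at 0 in both lines, 7 were under 1 RPKM in every Granta-519 library and 8 in every JeKo-1 library. The summed myeloid level was 47.1 to 52.9 RPKM in shCtrl and 41.2 to 47.9 in shCycD1 of Granta-519, most of it from CSF1R, and 2.95 to 3.20 against 2.48 to 3.33 RPKM in JeKo-1. Levels are not compared between the lines, because the JeKo-1 values did not follow the genomic span that the Granta-519 values followed. Levels of different genes are not compared either, because Granta-519 values follow the genomic span and the length used for JeKo-1 was not identified. The marker sums above, and the part of CSF1R in them, are read on that scale only.

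Promoters are shown first for the members that hold the longer E-box motif searched, since they are the sequences through which TFEB and TFE3 are known to act. RefSeq promoters (GRCh38.p14, 250 bases before to 50 bases after each start) were matched for 30 of the 37 members by symbol. CTSB, CTSS, HEXA, ASAH1, PSAP, LAMP2 and ATP6V1H had no matched promoter, so theirs were not searched. The matched promoters were searched on both strands for CACGTG, the E-box core, and for TCACGTG, which contains that core and is part of the CLEAR element. TCACGTG was found for 7 of the 30 members (23.3%), against 3.71% of all 35116 promoters, and CACGTG for 8 of the 30 (26.7%) against 7.26%. Some members and genes have more than 1 promoter in the reference, and a member was counted once if any of its promoters matched. Capitals below mark TCACGTG on either strand (TCACGTGA holds it on both), read 5′ to 3′ on the gene's strand and ending at the last base before the start. The stretches are chr20:45891235-45891334 (plus strand) for CTSA, chr11:1763928-1764027 (minus) for CTSD, chr17:80101481-80101580 (plus) for GAA, chr6:31862822-31862971 (minus) for NEU1, chr19:7522524-7522623 (plus) for MCOLN1, chr16:67481158-67481257 (minus) for ATP6V0D1 and chr13:113297039-113297238 (plus) for LAMP1.
CTSA: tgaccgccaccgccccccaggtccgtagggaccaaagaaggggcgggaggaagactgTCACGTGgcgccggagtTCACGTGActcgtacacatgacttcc
CTSD: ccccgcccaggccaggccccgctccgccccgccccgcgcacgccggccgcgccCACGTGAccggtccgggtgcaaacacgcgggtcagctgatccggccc
GAA: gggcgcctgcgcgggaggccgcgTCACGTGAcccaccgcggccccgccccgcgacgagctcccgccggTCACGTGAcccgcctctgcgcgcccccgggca
NEU1: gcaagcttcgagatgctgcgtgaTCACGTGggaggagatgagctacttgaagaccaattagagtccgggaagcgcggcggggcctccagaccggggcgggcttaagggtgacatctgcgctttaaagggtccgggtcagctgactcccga
MCOLN1: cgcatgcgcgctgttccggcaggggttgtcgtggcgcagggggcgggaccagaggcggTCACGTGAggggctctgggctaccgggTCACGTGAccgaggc
ATP6V0D1: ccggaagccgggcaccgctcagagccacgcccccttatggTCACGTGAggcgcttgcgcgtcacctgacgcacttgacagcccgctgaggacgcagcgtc
LAMP1: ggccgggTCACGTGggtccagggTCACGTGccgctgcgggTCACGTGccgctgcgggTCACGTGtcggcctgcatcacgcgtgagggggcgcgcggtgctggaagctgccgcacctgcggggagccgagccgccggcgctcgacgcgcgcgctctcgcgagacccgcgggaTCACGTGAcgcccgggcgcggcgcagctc
CTSA, GAA and MCOLN1 hold 2 E-box cores each, and CTSD, NEU1 and ATP6V0D1 hold 1 each. LAMP1 holds 6 cores in its window, the most of these 7, of which 5 lie wholly before the start and are shown. A match is a description of the letters, and a promoter without one is not thereby without TFEB.

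In Granta-519, 28 of the 36 tested members were higher and 1 was lower in shCycD1 (22.4% of all 12668 tested genes were called higher and 18.2% lower). In JeKo-1, 22 of 37 were higher and 4 lower (36.7% and 27.8% of all 11866 tested genes). The median log2 change of the tested members was 0.58 in Granta-519, beside 0.03 for all genes tested, and 0.62 in JeKo-1, beside 0.09. Every shCycD1 library stood above every shCtrl library for 31 of the 36 in Granta-519 (29.8% of all genes) and for 23 of 37 in JeKo-1 (39.1%), as the plot of all libraries shows. Of the 36 members tested in both lines, 22 were called higher in both (14.8% of the 10653 genes tested in both), 1 was called lower in both (13.1%), and 0 were called in opposite directions (2.99%). Every shCycD1 library stood below every shCtrl library for 4 members in each line (24.2% of all genes tested in the former line, 30.5% in the latter). Across the 36 members tested in both lines the changes in the lines had a Pearson r of 0.64 and a Spearman rho of 0.64, given as a description of genes that share each line's libraries. In bulk libraries, more cells expressing a gene and more RNA per cell cannot be told apart.

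The JeKo-1 changes moved with the GC content of transcripts: across all genes r was 0.34 in JeKo-1 and 0.02 in Granta-519, and 26 of the 37 members lay above the median GC content of the tested genes. With a GC correction the JeKo-1 median of the members was 0.24, beside 0.003 for all genes, with 18 members called higher and 4 lower (30.1% and 31.9% of all genes). In Granta-519 it was 0.56, beside 0.001, with 30 higher and 2 lower (21.4% and 21.1% of all genes). Scaling to the spike-in RNAs moved the all-gene median to 0.70 in Granta-519, where the member median was 1.27, with 31 of 36 members called higher and 0 lower (56.1% and 1.34% of all genes). In JeKo-1 it moved the all-gene median to 0.21 and the member median to 0.75, with 14 members called higher and 1 lower (20.1% and 8.12% of all genes). The JeKo-1 members that rose and were no longer called under this scaling were CTSZ (0.50), GLB1 (0.75), GRN (0.86), ATP6V0D1 (0.49), TFEB (0.65), BECN1 (0.77), MAP1LC3B (0.85) and SQSTM1 (0.75). Of those that fell, GUSB (-0.25), LAMP1 (-0.37) and CD63 (-0.20) were no longer called.

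**Figure D1:**
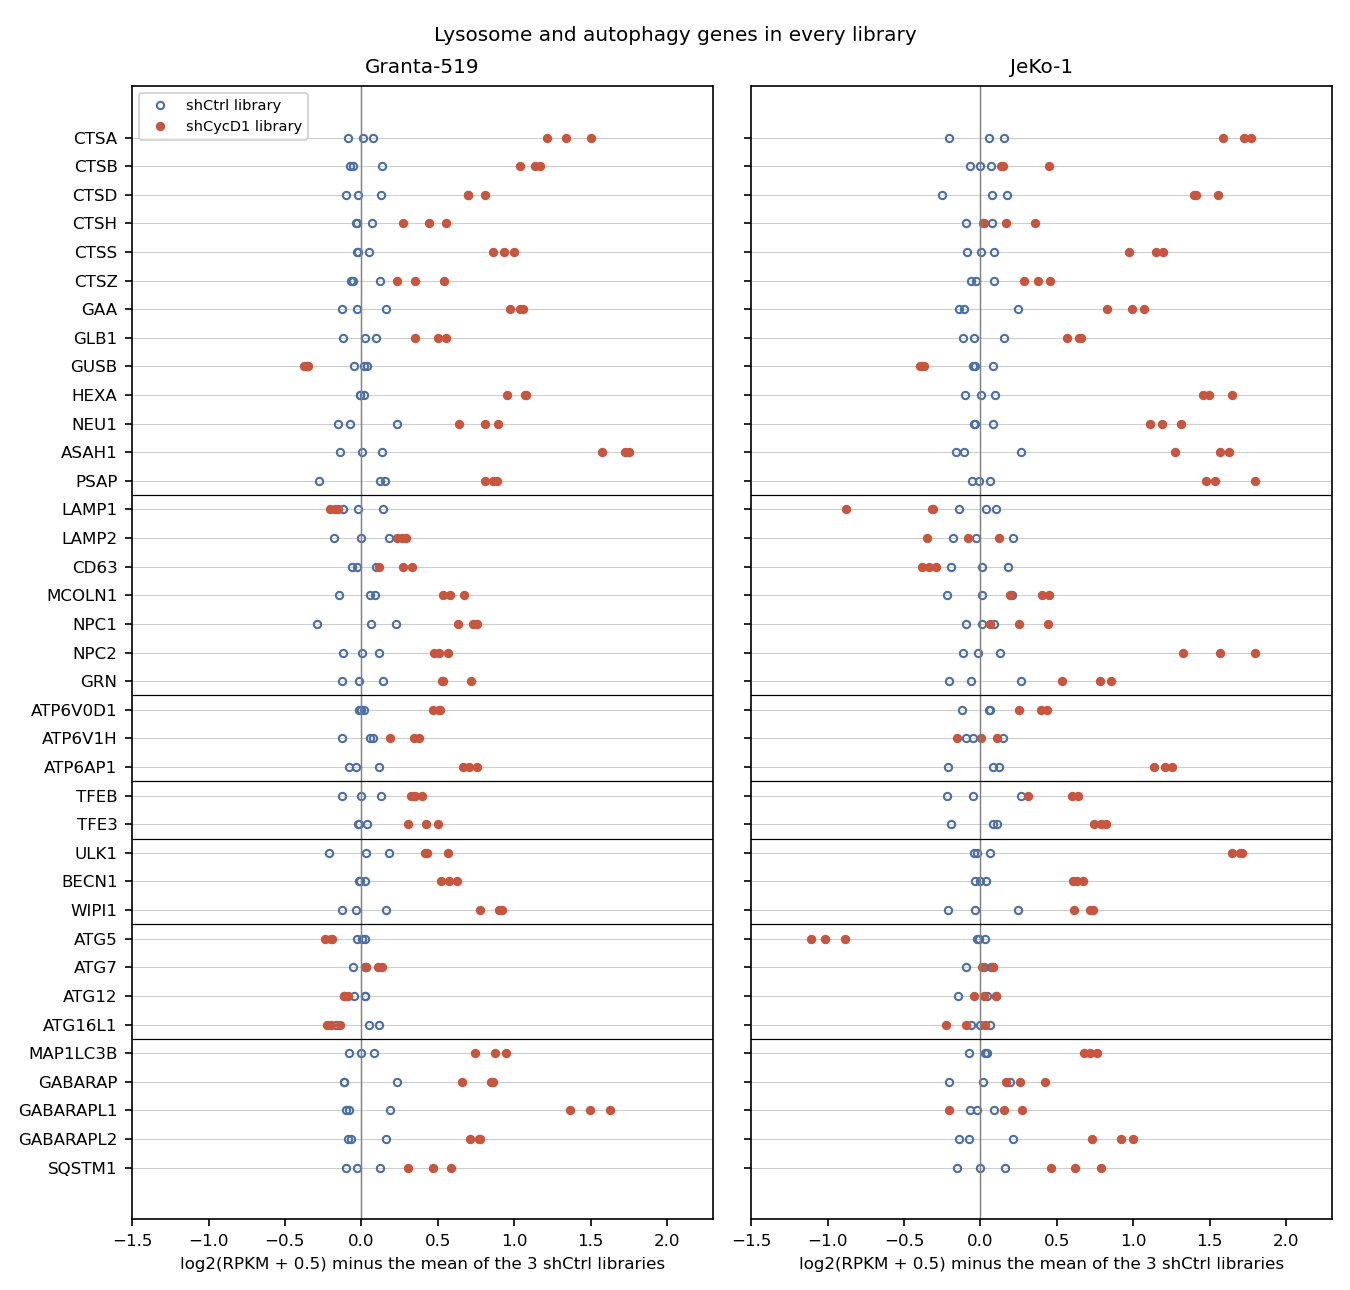
Each point is 1 library: log2(RPKM + 0.5) minus the mean of the 3 shCtrl libraries of that line, for the 37 members ordered by role (lines part the roles), shCtrl open and shCycD1 filled. All shCycD1 points lie to the right of all shCtrl points for 31 of 36 tested members in Granta-519 and 23 of 37 in JeKo-1; ATG7 was not tested in Granta-519.

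Counts by role, here and below, stand beside 22.4% higher and 18.2% lower among all tested genes in Granta-519, and 36.7% and 27.8% in JeKo-1. Lysosomal enzymes and their cofactors had the highest median change of the 7 roles in both lines. Of 13 genes, 12 rose and GUSB fell in Granta-519 (median 0.85), and 10 rose and GUSB fell in JeKo-1 (median 1.11), where CTSB and CTSH were not called. ASAH1, acid ceramidase, which splits ceramide into sphingosine and a fatty acid, stood at 19.6, 17.6 and 21.5 RPKM in Granta-519 shCtrl and 65.4, 58.9 and 66.6 in shCycD1 (log2 change 1.68 ± 0.10, adjusted p = 0.000156). The JeKo-1 libraries were at 12.8, 17.3 and 13.3 against 35.5, 43.5 and 45.3 RPKM (log2 change 1.49 ± 0.14, adjusted p = 0.000108). In both lines the lowest shCycD1 library was above the highest shCtrl library by a wide margin, and ASAH1 had the largest rise of all members in Granta-519.

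PSAP encodes prosaposin, which is cut into the saposins that present sphingolipids to their hydrolases. It was at 258, 196 and 265 RPKM in Granta-519 shCtrl and 416, 438 and 431 in shCycD1 (log2 change 0.85 ± 0.12, adjusted p = 0.0021), and at 302, 318 and 292 against 845, 883 and 1058 RPKM in JeKo-1 (log2 change 1.60 ± 0.09, adjusted p = 1.24e-05). No library of the one group reached the other in either line. HEXA, the alpha subunit of beta-hexosaminidase, which trims GM2 ganglioside, was at 6.89, 6.88 and 7.03 RPKM in Granta-519 shCtrl and 15.1, 13.9 and 15.2 in shCycD1 (log2 change 1.03 ± 0.07, adjusted p = 0.000212). Its JeKo-1 libraries were at 21.1, 22.6 and 19.6 RPKM in shCtrl and 60.3, 58.8 and 67 in shCycD1 (log2 change 1.53 ± 0.09, adjusted p = 9.71e-06). The 3 shCtrl libraries of each line lay close together, and all 3 shCycD1 libraries lay well above them.

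CTSA, the protective protein of the complex that also holds neuraminidase and beta-galactosidase, was at 32.7, 29.2 and 31.2 RPKM in Granta-519 shCtrl and 88.6, 72.4 and 79.2 in shCycD1 (log2 change 1.35 ± 0.09, adjusted p = 0.000195). In JeKo-1 its libraries were at 16.7, 15.5 and 12.9 against 50.5, 45.9 and 52.2 RPKM (log2 change 1.69 ± 0.11, adjusted p = 1.93e-05). Its rise and that of ULK1 were the highest of the members there and lay within their SE of each other. Both partners of that complex rose as well. NEU1, the sialidase, was at 64.8, 68.3 and 84.9 against 127, 113 and 134 RPKM in Granta-519 (log2 change 0.78 ± 0.12, adjusted p = 0.00284), and at 16.7, 15.2 and 15.3 against 34.6, 36.6 and 39.8 in JeKo-1 (log2 change 1.20 ± 0.08, adjusted p = 2.54e-05). This gene stands on 8 rows of each table, and summing them kept both calls. GLB1, beta-galactosidase, was at 2.41, 2.14 and 2.56 against 3.71, 3.15 and 3.55 RPKM in Granta-519 (log2 change 0.47 ± 0.10, adjusted p = 0.0104) and at 11.4, 13.2 and 10.8 against 17.7, 18.9 and 18.7 in JeKo-1 (log2 change 0.62 ± 0.09, adjusted p = 0.000907). Groups did not overlap for any of the 3 genes in either line, and the CTSA and NEU1 promoters are among those printed above.

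The cathepsins, lysosomal proteases, did not move as a block. CTSD, an aspartic protease, was at 60.7, 51.8 and 54.7 RPKM in Granta-519 shCtrl and 90.7, 90.5 and 97.7 in shCycD1 (log2 change 0.74 ± 0.08, adjusted p = 0.000765), and at 27.6, 25.7 and 20.4 against 65.4, 64.8 and 72.6 in JeKo-1 (log2 change 1.45 ± 0.12, adjusted p = 5.52e-05). CTSS, a cysteine protease that trims the MHC class II invariant chain in antigen-presenting cells, was at 31.2, 31.3 and 32.9 against 64, 58.1 and 61.1 RPKM in Granta-519 (log2 change 0.93 ± 0.07, adjusted p = 0.000219) and at 19.1, 20.4 and 21.6 against 40.4, 47.3 and 45.8 in JeKo-1 (log2 change 1.11 ± 0.09, adjusted p = 5.03e-05). Both were higher in every silenced library. CTSB, another cysteine protease, was at 12.7, 10.9 and 11.1 against 26.6, 24.3 and 26 RPKM in Granta-519 (log2 change 1.11 ± 0.09, adjusted p = 0.000242). Its JeKo-1 libraries were at 12.9, 13.6 and 12.3 against 14.4, 14.2 and 17.8 RPKM, a log2 change of 0.24 ± 0.11 (adjusted p = 0.0788) that was not called. The groups did not overlap there, but the lowest shCycD1 and highest shCtrl libraries were close.

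CTSZ, a cysteine carboxypeptidase, was at 66.5, 75.5 and 66 against 88.5, 81.5 and 101 RPKM in Granta-519 (log2 change 0.38 ± 0.10, adjusted p = 0.0238) and at 139.6, 128 and 126 against 170.4, 159.6 and 179.9 in JeKo-1 (log2 change 0.37 ± 0.07, adjusted p = 0.00363). Its calls were among the least stable: leaving out any one of shCtrl 1, shCtrl 3, shCycD1 1 and shCycD1 3 ended the Granta-519 call (values of 0.29 to 0.39), as did equal medians (0.36, adjusted p = 0.0504) and a replicate block (adjusted p = 0.0682), and the GC correction put the JeKo-1 value at -0.01. CTSH, a cysteine aminopeptidase, rose in Granta-519 (0.42 ± 0.09, adjusted p = 0.00935) and was at 0.18 ± 0.10 in JeKo-1 without being called (adjusted p = 0.166). GAA, acid alpha-glucosidase, which digests glycogen, was at 2.79, 2.19 and 2.38 against 5.62, 5.27 and 5.54 RPKM in Granta-519 (log2 change 1.02 ± 0.10, adjusted p = 0.000512) and at 3.01, 2.19 and 2.24 against 5.71, 4.74 and 5.39 in JeKo-1 (log2 change 0.96 ± 0.13, adjusted p = 0.000631). Its groups were apart in both lines, and its printed promoter holds 2 E-box cores.

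GUSB, beta-glucuronidase, was the single enzyme that fell in both lines. It was at 11.5, 10.9 and 11.4 RPKM in Granta-519 shCtrl and 8.73, 8.56 and 8.68 in shCycD1 (log2 change -0.36 ± 0.07, adjusted p = 0.00673), and at 20.8, 19 and 19.1 against 14.8, 15.1 and 14.9 in JeKo-1 (log2 change -0.38 ± 0.07, adjusted p = 0.00309). Every silenced library was below every control library, although spike-in scaling put the Granta-519 value at 0.33 without a call (adjusted p = 0.341) and the JeKo-1 value at -0.25 (adjusted p = 0.621).

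**Figure D2:**
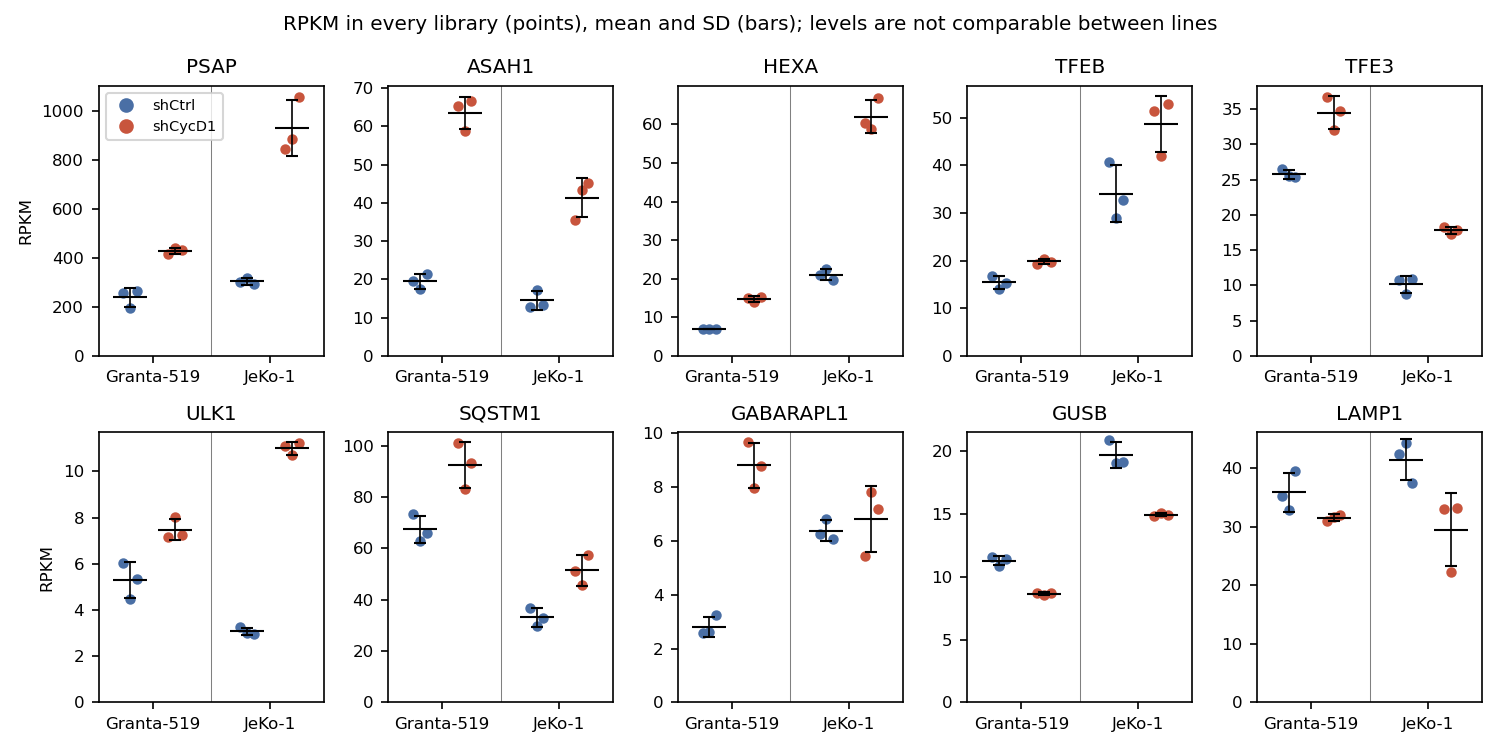
RPKM (linear axis from 0) of 10 members in every library, points for libraries and bars for the mean and SD of 3, shCtrl in blue and shCycD1 in red, each line on its own scale of gene length. PSAP, ASAH1, HEXA, TFEB, TFE3, ULK1 and SQSTM1 are higher in all shCycD1 libraries of both lines, GABARAPL1 in Granta-519 with overlap in JeKo-1, and GUSB and LAMP1 are lower.

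Membrane and lumen proteins of the lysosome were mixed. In Granta-519, 4 of 7 rose and 0 fell (median 0.52), and in JeKo-1 2 rose and 2 fell (median 0.25). The JeKo-1 counts are near the shares of all tested genes there (36.7% higher and 27.8% lower). NPC2, the soluble protein that hands cholesterol to NPC1 for export, was at 19.6, 23.1 and 21.4 RPKM in Granta-519 shCtrl and 31.9, 29.9 and 30.5 in shCycD1 (log2 change 0.52 ± 0.08, adjusted p = 0.00313). Its JeKo-1 libraries were at 41.6, 37.6 and 35 against 114, 95.7 and 133 RPKM (log2 change 1.56 ± 0.13, adjusted p = 5.41e-05). Both lines had their groups apart, with a fold between means of 1.44 in Granta-519 and 3.0 in JeKo-1. NPC1, its membrane partner, rose in Granta-519 (0.70 ± 0.14, adjusted p = 0.00789) and was at 0.25 ± 0.12 in JeKo-1 without being called (adjusted p = 0.1). GRN, progranulin, which is cut into granulins in the lysosome, was at 129, 107 and 115 against 193, 168 and 169 RPKM in Granta-519 (log2 change 0.59 ± 0.10, adjusted p = 0.00328) and at 44.6, 35.5 and 32.1 against 64.2, 53.7 and 67.4 in JeKo-1 (log2 change 0.72 ± 0.14, adjusted p = 0.00296). Its groups did not overlap, but in JeKo-1 GRN was no longer called after the GC correction (0.24, adjusted p = 0.0767).

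The promoter of LAMP1, the most used marker protein of the lysosomal membrane, has the most E-box cores of those printed above. A link between these cores and its RNA level was not tested. LAMP1 did not rise in either line. It was at 35.2, 32.8 and 39.4 RPKM in Granta-519 shCtrl and 31, 31.6 and 32 in shCycD1, a log2 change of -0.18 ± 0.08 (adjusted p = 0.133) that was not called, and that spike-in scaling put at 0.54 without a call. In JeKo-1 it was at 42.3, 44.3 and 37.5 against 33, 22.3 and 33.2 RPKM (log2 change -0.50 ± 0.16, adjusted p = 0.0277), with shCycD1 2 the lowest library. That call was lost without shCtrl 1 (-0.48) or shCtrl 2 (-0.45) and without the filter on low values (adjusted p = 0.0561). LAMP2, whose isoform LAMP-2A serves chaperone-mediated autophagy, had a log2 change of 0.26 ± 0.10 in the Granta-519 libraries (adjusted p = 0.0768) and -0.10 ± 0.15 in JeKo-1 (adjusted p = 0.558), and LAMP isoforms cannot be told apart in values per gene.

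CD63, a tetraspanin of late endosomes and lysosomes, was at 146, 163 and 149 against 184, 165 and 192 RPKM in Granta-519, a log2 change of 0.24 ± 0.08 (adjusted p = 0.0587) that was not called. In JeKo-1 it fell, from 143, 161 and 124 to 112, 109 and 116 RPKM (log2 change -0.34 ± 0.10, adjusted p = 0.0202), a call lost with quantile normalization (-0.17, adjusted p = 0.119) and without shCtrl 2 (-0.24), shCycD1 1 (-0.34) or shCycD1 2 (-0.31). The silenced libraries stood just above the controls in the former line and below them in the latter. MCOLN1, the lysosomal calcium channel TRPML1, rose in Granta-519 (0.59 ± 0.10, adjusted p = 0.00352) and was at 0.35 ± 0.14 in JeKo-1 without being called (adjusted p = 0.0537).

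The proton pump (V-ATPase), which acidifies the lysosome, was represented by 3 members, of which 2 rose in each line. ATP6AP1, an accessory subunit needed for pump assembly, was at 42.9, 41.5 and 47.7 RPKM in Granta-519 shCtrl and 74.7, 71.8 and 69.8 in shCycD1 (log2 change 0.71 ± 0.08, adjusted p = 0.000721), and at 13.9, 14.3 and 11.3 against 31, 29.4 and 32 in JeKo-1 (log2 change 1.20 ± 0.11, adjusted p = 7.59e-05). ATP6V0D1, a subunit of the membrane sector, was at 16.7, 16.3 and 16.4 against 23, 23.7 and 23.7 RPKM in Granta-519 (log2 change 0.50 ± 0.06, adjusted p = 0.00131) and at 98.7, 98 and 86.7 against 124, 112 and 128 in JeKo-1 (log2 change 0.36 ± 0.08, adjusted p = 0.00679). All silenced libraries were above the controls for both genes, but the JeKo-1 value of ATP6V0D1 was -0.02 with the GC correction (adjusted p = 0.814). ATP6V1H, of the cytosolic sector, had a log2 change of 0.30 ± 0.10 in the Granta-519 libraries (adjusted p = 0.0501) and -0.02 ± 0.11 in JeKo-1 (adjusted p = 0.911).

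Both transcription factors rose in both lines. TFEB was at 16.8, 14.1 and 15.4 RPKM in Granta-519 shCtrl and 19.4, 20.4 and 19.8 in shCycD1 (log2 change 0.36 ± 0.08, adjusted p = 0.0151), and at 40.7, 28.9 and 32.6 against 51.4, 42 and 52.8 in JeKo-1 (log2 change 0.52 ± 0.14, adjusted p = 0.0157). The highest JeKo-1 shCtrl library came close to the lowest shCycD1 library, and that call was lost with the GC correction (0.15, adjusted p = 0.316) and without shCycD1 1 (0.47) or 3 (0.46). TFE3 was at 26.5, 25.5 and 25.4 RPKM in Granta-519 shCtrl and 36.7, 32 and 34.8 in shCycD1 (log2 change 0.41 ± 0.08, adjusted p = 0.00542), and at 10.8, 8.81 and 11 against 18.3, 17.3 and 17.9 in JeKo-1 (log2 change 0.79 ± 0.10, adjusted p = 0.000433), or 0.36 there with the GC correction (adjusted p = 0.0142). These are RNA levels, and the location and phosphorylation of the proteins were not measured.

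All 3 genes of autophagy start and membrane nucleation rose in both lines. ULK1, the kinase that starts autophagy and is held back by mTORC1, was at 6.02, 4.48 and 5.36 RPKM in Granta-519 shCtrl and 7.17, 8.02 and 7.26 in shCycD1 (log2 change 0.47 ± 0.12, adjusted p = 0.0181). Its JeKo-1 libraries were at 3.25, 3.02 and 2.98 against 11.1, 10.7 and 11.2 RPKM (log2 change 1.68 ± 0.08, adjusted p = 5.32e-06), with libraries of each group within a narrow range and 3.57-fold between the means. The Granta-519 call was lost without shCycD1 2 (0.42, adjusted p = 0.0582), and a fit with a replicate block put its adjusted p at 0.0523. BECN1, a subunit of the lipid kinase complex, was at 54.7, 55.9 and 54.5 against 85.1, 79 and 81.9 RPKM in Granta-519 (log2 change 0.57 ± 0.06, adjusted p = 0.000749) and at 18.7, 18.2 and 17.8 against 28.5, 29.3 and 28 in JeKo-1 (log2 change 0.64 ± 0.07, adjusted p = 0.000186). WIPI1, which binds the lipid made by that complex, was at 2.34, 2.17 and 2.75 against 4.93, 4.99 and 4.47 RPKM in Granta-519 (log2 change 0.86 ± 0.10, adjusted p = 0.00104) and at 2.85, 1.95 and 2.27 against 4.21, 3.83 and 4.15 in JeKo-1 (log2 change 0.69 ± 0.13, adjusted p = 0.00287). No overlap between groups was seen for these 3 genes, although spike-in scaling ended the JeKo-1 call of BECN1 (0.77, adjusted p = 0.0741).

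Conjugation genes did not rise in either line. ATG5, which joins ATG12 and ATG16L1 in the enzyme that attaches ATG8 proteins to the membrane, was at 3.42, 3.5 and 3.55 RPKM in Granta-519 shCtrl and 2.98, 2.89 and 3 in shCycD1, a log2 change of -0.21 ± 0.08 (adjusted p = 0.0679) that was not called (0.42 with spike-in scaling, adjusted p = 0.199). It fell in JeKo-1, from 8.82, 9.09 and 8.75 to 3.85, 4.14 and 4.57 RPKM (log2 change -1.0 ± 0.09, adjusted p = 9.19e-05), the largest fall of all members. ATG12 had a log2 change of -0.11 ± 0.06 in the Granta-519 libraries (adjusted p = 0.21) and 0.03 ± 0.10 in JeKo-1 (adjusted p = 0.825), or 0.31 with the GC correction there (adjusted p = 0.00599). ATG16L1 was at -0.19 ± 0.10 (adjusted p = 0.17) and -0.10 ± 0.10 (adjusted p = 0.412), and spike-in scaling put the Granta-519 values of ATG12 and ATG16L1 at 0.62 and 0.46 without a call. ATG7, the activating enzyme of the conjugation, was under the minimum for testing in Granta-519, at 0.544 ± 0.0328 RPKM in shCtrl and 0.612 ± 0.0433 in shCycD1 (SD, n = 3), and at 0.06 ± 0.09 in JeKo-1 (adjusted p = 0.606). Granta-519 values follow the genomic span of each gene, so that minimum depends on gene length as well as on expression.

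ATG8 proteins, which mark the autophagosome membrane, and the cargo receptor SQSTM1 (p62), which binds ubiquitinated cargo, gave 5 rises of 5 in Granta-519 (median 0.79) and 3 of 5 in JeKo-1 (median 0.62). MAP1LC3B (LC3B) was at 74.2, 83.3 and 78.4 RPKM in Granta-519 shCtrl and 152, 132 and 144 in shCycD1 (log2 change 0.86 ± 0.08, adjusted p = 0.000456), and at 67, 67.7 and 62.2 against 112, 105 and 108 in JeKo-1 (log2 change 0.72 ± 0.07, adjusted p = 9.38e-05). It has a near-identical copy, MAP1LC3B2, which was at 0.69 and 0.71, so the split of reads between them is uncertain. GABARAPL2 was at 43.5, 51.7 and 44 against 79.1, 76.1 and 79.5 RPKM in Granta-519 (log2 change 0.75 ± 0.08, adjusted p = 0.000837) and at 67.2, 85.7 and 70.3 against 123, 140.3 and 148 in JeKo-1 (log2 change 0.88 ± 0.11, adjusted p = 0.000437). SQSTM1 was at 73.4, 62.8 and 66 against 101, 83.2 and 93.4 RPKM in Granta-519 (log2 change 0.45 ± 0.10, adjusted p = 0.0105) and at 37, 29.6 and 33 against 51.1, 45.7 and 57.4 in JeKo-1 (log2 change 0.62 ± 0.11, adjusted p = 0.00238), or 0.24 there with the GC correction (adjusted p = 0.0697). Groups were apart for these genes in both lines.

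GABARAP and GABARAPL1, the other ATG8 genes of the list, rose in Granta-519 and were not called in JeKo-1. GABARAPL1 was at 2.56, 2.61 and 3.24 RPKM in Granta-519 shCtrl and 9.65, 7.97 and 8.78 in shCycD1 (log2 change 1.5 ± 0.12, adjusted p = 0.000249). Its JeKo-1 libraries, at 6.26, 6.81 and 6.07 against 5.44, 7.81 and 7.16 RPKM, overlapped (log2 change 0.07 ± 0.14, adjusted p = 0.658). GABARAP was at 363, 462 and 363 against 707, 622 and 715 RPKM in Granta-519 (log2 change 0.79 ± 0.12, adjusted p = 0.00244) and at 203, 179.6 and 154 against 213, 199.7 and 238 in JeKo-1 (log2 change 0.28 ± 0.12, adjusted p = 0.0641), where one shCycD1 library lay within the range of the controls.

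The lines were then compared by the difference of their changes, Granta-519 minus JeKo-1, in a joint fit. Of the 36 members, 13 differed (41.9% of the 10653 genes tested in both were called), 5 with the more positive change in Granta-519 and 8 in JeKo-1. The biggest differences were those of GABARAPL1 (1.42 ± 0.18, adjusted p = 0.00013) and, in the other direction, ULK1 (-1.21 ± 0.14, adjusted p = 5.47e-05) and NPC2 (-1.05 ± 0.16, adjusted p = 0.000382). CTSB (0.87 ± 0.14, adjusted p = 0.000455) and ATG5 (0.80 ± 0.11, adjusted p = 0.000174) followed on the Granta-519 side. For BECN1 the difference was -0.06 ± 0.08 (adjusted p = 0.553) and for GUSB 0.02 ± 0.09 (adjusted p = 0.857), which are not shown to differ. Only 3 of the 13 were called under spike-in scaling, namely GABARAPL1 (1.94), CTSB (1.45) and ATG5 (1.30). The log base of the JeKo-1 table is inferred, and read as log2 it gave no call for CTSD, HEXA, NEU1, PSAP, ATP6AP1 or TFE3. Line, medium and the depth of silencing cannot be told apart here.

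**Figure D3:**
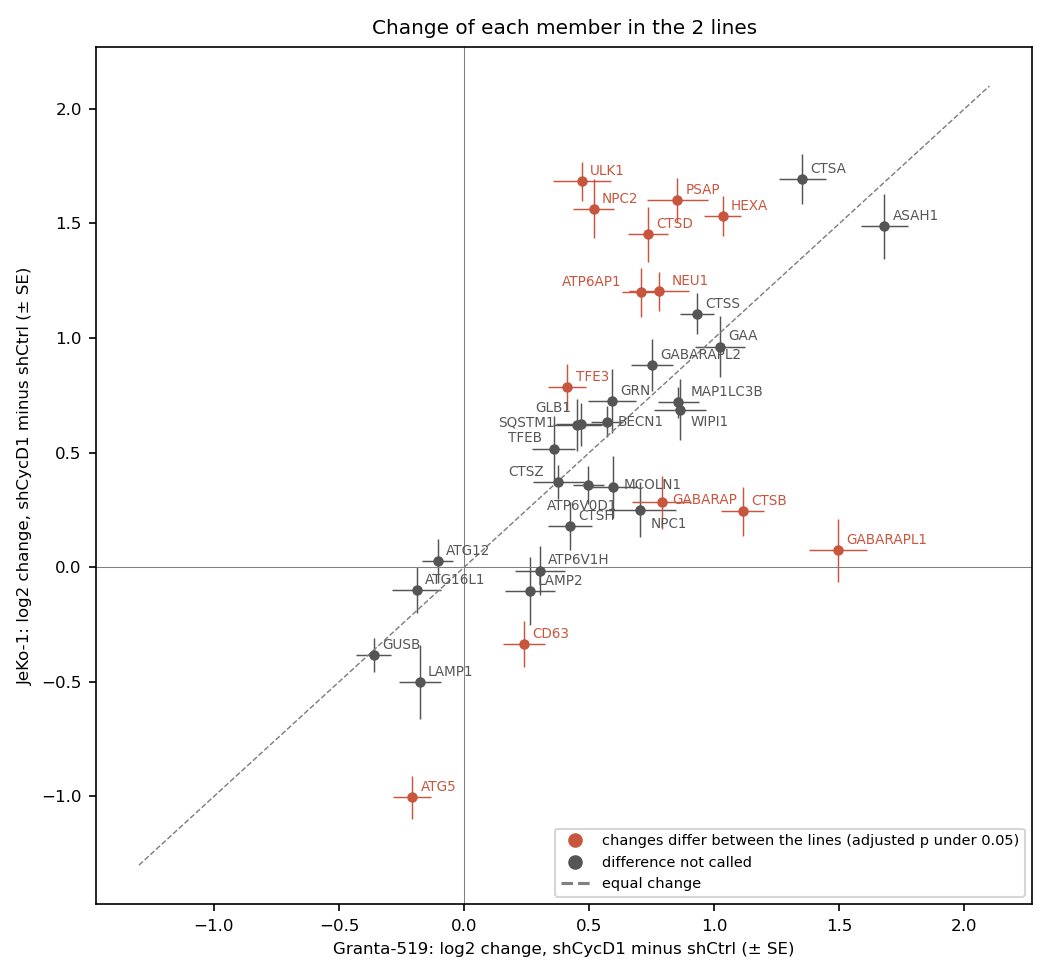
Log2 change (shCycD1 minus shCtrl, ± SE, 3 libraries against 3) of the 36 members tested in both lines, Granta-519 on the x axis and JeKo-1 on the y axis; the dashed line marks equal change and red marks the 13 members whose changes differed. ULK1 and NPC2 lie above the line, and GABARAPL1 and CTSB lie below it.

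Other genes of the pathway, in 8 lists of 144 genes that hold none of the members, rose more often than they fell. These lists, like the members, were chosen with earlier results of these data known, so they are not independent support. In Granta-519, 70 of 132 tested genes rose and 9 fell, and in JeKo-1 83 of 137 rose and 14 fell. All list counts are to be read against the shares of all tested genes, 22.4% higher and 18.2% lower in Granta-519 and 36.7% and 27.8% in JeKo-1. The changes and calls of these lists were not examined with the GC correction, spike-in scaling or any other setting. Of other lysosomal enzymes, 22 of 30 rose and 3 fell in Granta-519 (median 0.59) and in JeKo-1 23 of 32 rose and 1 fell (median 0.84). Those named by size were SMPD1, acid sphingomyelinase (1.38 in Granta-519), IDUA (1.19), the protease CTSC (1.16) and the heparan sulfatase SGSH (1.05 in Granta-519, and 2.57 in JeKo-1 from an shCtrl mean of 0.62 RPKM), with GALNS (2.16), CTSO (1.96) and the phospholipase PLA2G15 (1.87) in JeKo-1. CTSC was not called in JeKo-1 (-0.10, adjusted p = 0.278), and the rest of these named enzymes were called higher in both lines. Of other membrane and sorting genes, 12 of 22 rose and 2 fell in Granta-519 and in JeKo-1 15 of 23 rose and 1 fell. The enzyme that makes the mannose 6-phosphate sorting tag is in that list. Its subunits GNPTG (Granta-519 1.19, JeKo-1 1.42) and GNPTAB (1.0 and 0.41) rose in both lines. NAGPA, which uncovers the tag, rose by 0.74 in Granta-519 and 1.55 in JeKo-1. IGF2R, a receptor of the tag, rose by 0.71 in Granta-519 (adjusted p = 0.0397) and 0.94 in JeKo-1.

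Other proton pump subunits rose for 8 of 15 with 0 fallen in Granta-519 and for 5 of 15 with 3 fallen in JeKo-1, a share of risers near that of all genes there. ATP6V1G1 rose most in both, by 1.41 and 1.36. Among relatives of TFEB and the nutrient-sensing machinery on the lysosome, 5 of 16 rose and 1 fell in Granta-519 and in JeKo-1 10 of 17 rose and 3 fell. The Rag GTPases, which bring mTORC1 to the lysosome, were among them: RRAGC rose by 0.63 and 0.76, RRAGD by 0.51 and 0.78 and RRAGB by 0.54 and 0.73 in Granta-519 and JeKo-1. The fourth, RRAGA, named after its values were seen, fell in both (-0.30, adjusted p = 0.00881, and -0.35, adjusted p = 0.00633), so the Rag genes did not move together.

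Of other genes of autophagy start and nucleation, 8 of 17 rose and 0 fell in Granta-519 and in JeKo-1 12 of 17 rose and 1 fell. ATG14 was at 0.69 and 1.08 and WDR45 at 0.61 and 1.17. ATG9A was at 1.35 in JeKo-1 and was not called in Granta-519 (0.04, adjusted p = 0.795). Other ATG8, processing and conjugation genes gave 2 rises and 1 fall of 8 in Granta-519 (median -0.06) and 5 rises and 3 falls of 10 in JeKo-1 (median -0.01), the lowest medians of the 8 lists in both lines. Other cargo receptors rose for 6 of 10 and 4 of 9 with 0 fallen in either line, and the JeKo-1 count is near the share of all genes. TOLLIP rose by 1.0 and 1.5. OPTN rose by 0.90 in Granta-519 and was not called in JeKo-1 (0.31, adjusted p = 0.112). Genes of autophagosome to lysosome fusion rose for 7 of 14 and 9 of 14 with 2 fallen in each line, the HOPS subunits VPS11 by 0.80 and 0.92 and VPS39 by 0.61 and 0.85. The genes that fell, named after their values were seen, were the same in both lines, the SNAREs SNAP29 (-0.35 and -0.63) and YKT6 (-0.19 and -0.59).

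**Figure D4:**
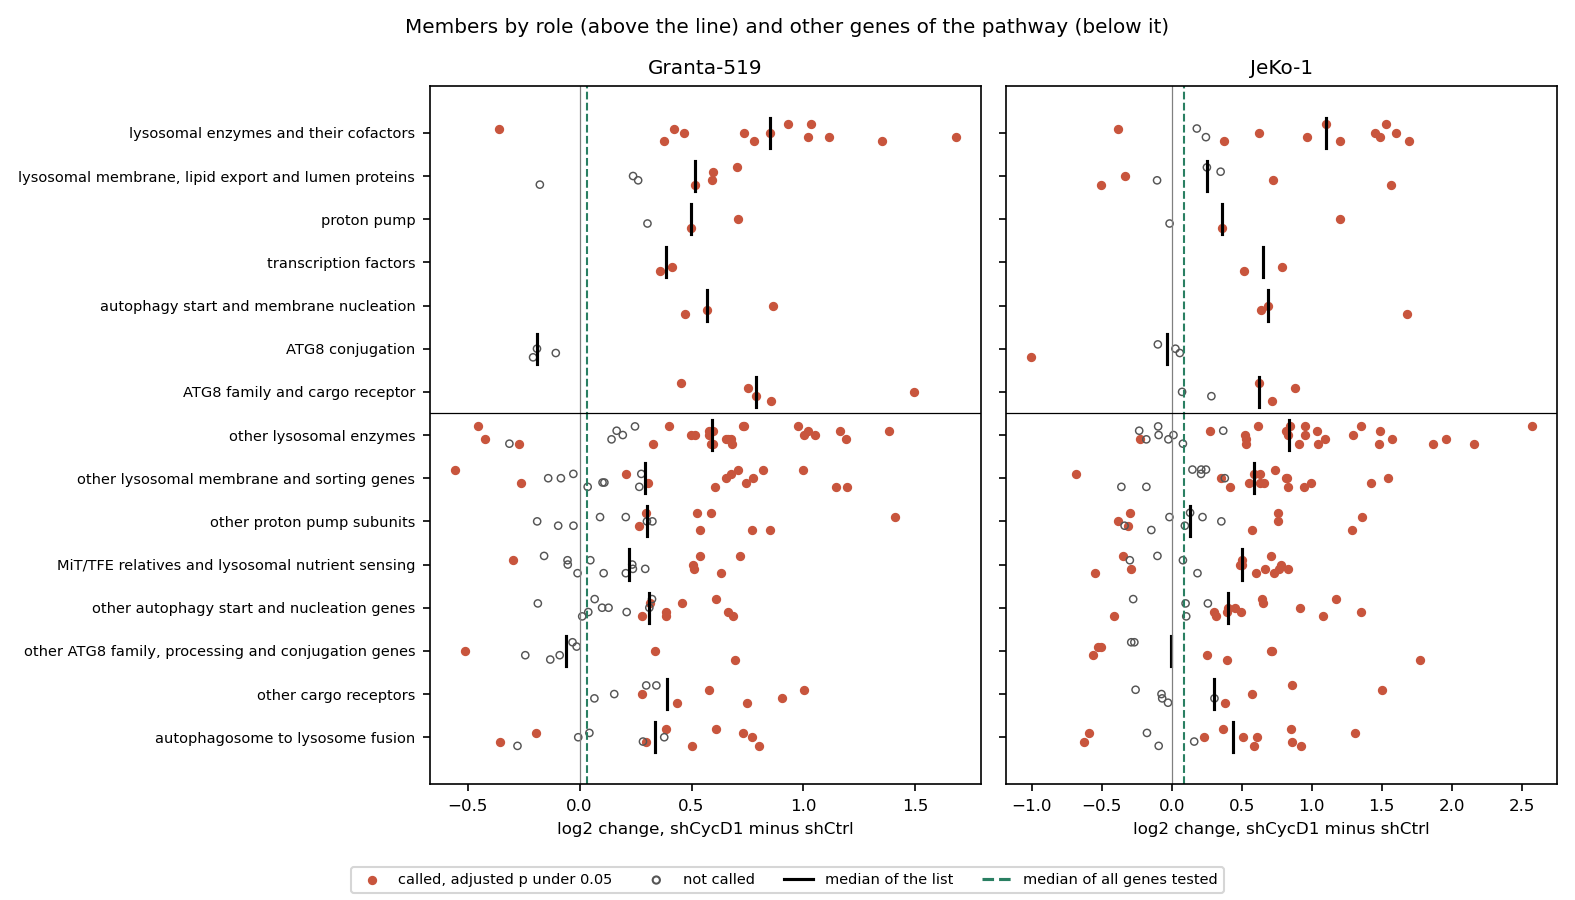
Log2 change (shCycD1 minus shCtrl) of each tested gene, members by role above the line and the 8 lists of other pathway genes below it; filled points are called, open points are not, black bars are list medians and the dashed line is the median of all genes tested. Lysosomal enzymes have the highest medians (0.85 and 1.11 among members), and the tested conjugation members lie below the dashed line (medians -0.19 and -0.04).

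Promoters of the members that rose were set beside those of the others as a description. In Granta-519, TCACGTG was found for 6 of 23 matched members called higher and 1 of 6 matched members tested and not called higher, and in JeKo-1 for 5 of 18 and 2 of 12. The members with the largest rises whose promoters were matched include genes with the motif (CTSA) and without it (ULK1, GABARAPL1, NPC2). ASAH1, PSAP and HEXA, also among the largest rises, had no matched promoter and were not searched.

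**Figure D5:**
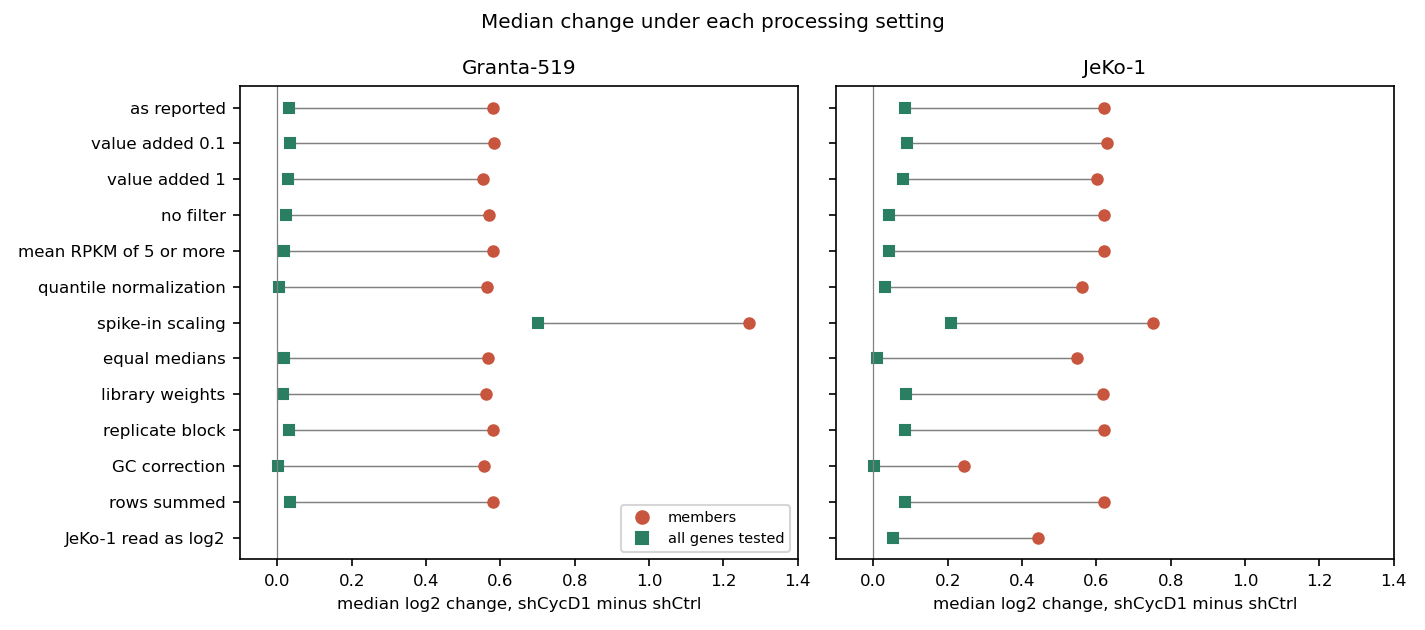
Median log2 change (x axis) of the tested members (circles) and of all genes tested (squares) under each processing setting (y axis) in each line. The circle lies to the right of the square in every setting shown, nearest to it in JeKo-1 with the GC correction (0.24 against 0.003) and shifted together with it under spike-in scaling in Granta-519 (1.27 against 0.70).

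Annotated exons of 16 of the 37 members overlap exons of another gene, on the opposite strand for 13 of them (GENCODE v29). Those include CTSA with PLTP, BECN1 with CNTD1 and WIPI1 with ARSG. Whether the counting used strand is not given in the sources used here, so reads of such pairs may be shared.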

How the data were processed

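RNA-seq libraries of 12 samples (3 shCtrl and 3 shCycD1 for each of Granta-519 and JeKo-1) were used as the authors deposited them, in 1 table a line, as natural log of RPKM + 1. Per the submitters' processing notes, FastQC, TopHat2 2.1.1 and limma 3.9 were used, with builds GRCh37 and hg19; the counting tool and its use of strand were not found in the labels. The log base was read from the spacing of low Granta-519 values, of which 80.0 to 83.2% came out within 0.1 of a whole number of reads with a natural base and the best-matching step, 52.9 to 58.3% with log2 and 37.9 to 47.1% with log10. For JeKo-1 it was inferred from the spread of the spike-in RNAs, so a reading as log2 was an alternative. Values per gene follow the genomic span in the Granta-519 table, and the length used in the JeKo-1 table was not identified. There, with a natural base, 27.3 to 30.6% of low values came out whole with the genomic span and 34.4 to 38.1% with a transcript length.

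Values were turned back to RPKM and tested as log2(RPKM + 0.5) by a trended empirical Bayes fit (limma 3.58.1, R 4.3.3), separately in each line, on genes at 1 RPKM or more in at least 3 libraries. The adjusted p threshold was 0.05. Because of the value added, log2 changes of low genes are understated. A joint fit of the 12 libraries tested the difference of the changes. The script was tested on simulated data. The members and lists were chosen with earlier results of these data known. Library values are printed for members called in both lines or differing between them, for the 8 largest called changes in each direction and line, and for TFEB, TFE3 and SQSTM1; at most 4 called genes of each other list and line are named. Alternatives were other values added (0.1 and 1), filters (none, or a mean RPKM of 5), scalings, library weights, a replicate block, a GC correction, summed rows and leaving out each library.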

Additional observations from a re-analysis of the deposited data

Results flagged for a closer look

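For 13 members the change after cyclin D1 silencing differed between the lines by the joint limma fit (difference of log2 changes, Granta-519 minus JeKo-1), which is 36.1% of the 36 tested in both lines, beside 41.9% of all genes tested in both. It was more positive in Granta-519 for GABARAPL1 (1.42), CTSB (0.87), ATG5 (0.80), CD63 (0.57) and GABARAP (0.51). It was more positive in JeKo-1 for ULK1 (-1.21), NPC2 (-1.05), PSAP (-0.75), CTSD (-0.72), HEXA (-0.50), ATP6AP1 (-0.49), NEU1 (-0.43) and TFE3 (-0.37). For 10 of the 13 the call held whichever library was left out; the other 3 were NEU1, TFE3 and GABARAP. The call of 3 of the 13 held in every setting (CTSB, ATG5 and GABARAPL1). ATG5 and CD63 fell in JeKo-1 and were not called in Granta-519.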

How the results depend on the processing

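Of the calls reported for members, 26 of 29 in Granta-519, 15 of 26 in JeKo-1 and 3 of 13 differences between the lines held under every setting that tested them. Calls of the other pathway lists were not examined in this way. With spike-in scaling, 0 members were called lower in Granta-519 (1.34% of all genes) and 14 higher and 1 lower in JeKo-1 (20.1% and 8.12%). Under it 14 were called in the same direction in both lines (23 in the fit reported above) and 3 differed between the lines. The count of 23 does not hold in every other setting. With the GC correction, 30 members were called higher and 2 lower in Granta-519 (21.4% and 21.1% of all genes), and 18 and 4 in JeKo-1 (30.1% and 31.9%). Members called lower in Granta-519 were 2 with quantile normalization (20.8% of all genes), 4 with library weights (28.3%) and 2 with the GC correction (21.1%). The fit reported above had 1 (18.2%). Leaving out 1 library gave 1 to 2 lower in Granta-519 (2 without shCtrl 2, with 19.8% of all genes lower). In JeKo-1 it gave 2 to 4 lower (2 without shCtrl 2, with 25.1% of all genes lower).

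Signs turned, the cause not tested, as follows. Spike-in scaling in Granta-519 gave GUSB 0.33, LAMP1 0.54, ATG5 0.42, ATG12 0.62 and ATG16L1 0.46, and in JeKo-1 LAMP2 0.0253, ATP6V1H 0.11 and ATG16L1 0.0255. The GC correction in JeKo-1 gave CTSH -0.0703, CTSZ -0.0122, MCOLN1 -0.14, ATP6V0D1 -0.0209, ATG7 -0.11 and LAMP2 0.17. In JeKo-1, ATG7 was -0.11 and ATG12 -0.0460 with quantile normalization, and ATG7 -0.0165, ATG12 -0.0478 and GABARAPL1 -0.00029 with equal medians. Leaving out 1 JeKo-1 library gave LAMP2 -0.217 to 0.0177 (above 0 without shCtrl 2 or shCycD1 1), ATP6V1H -0.0767 to 0.0573 (above 0 without the same libraries), ATG12 -0.0459 to 0.078 (below 0 without shCtrl 1 or shCycD1 2) and GABARAPL1 -0.026 to 0.216 (below 0 without shCycD1 2). Differences between the lines turned with spike-in scaling for HEXA (0.0600), NEU1 (0.17), ATP6AP1 (0.10) and TFE3 (0.22), and with the GC correction for TFE3 (0.0101).

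With the replicate block, 26 members were called higher and 1 lower in Granta-519 and 23 and 4 in JeKo-1. Same-numbered libraries deviated together at r of 0.01, -0.12 and 0.03 in Granta-519 and 0.187, 0.0949 and 0.103 in JeKo-1. Differently numbered libraries were at -0.12 to 0.11 in Granta-519 and -0.10 to 0.0005 in JeKo-1. Same-numbered values were thus all above the others in JeKo-1 and not in Granta-519. Whether the numbers pair the JeKo-1 libraries is not known, and the reported fits do not pair them. Depth is unknown in JeKo-1 and only inferred in Granta-519, where ATG7 fell under the minimum.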
